A study of Mus musculus with 14 samples.

Results

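The 10 genes described here encode growth factors that maintain leukocytes, the white blood cells, and the receptors for those factors. They were taken from the count and TPM tables by matching Ensembl identifiers to the listed mouse symbols, and all 10 were found among the 48794 genes of the tables. Of these, 3 were ligands (Csf1, Il34 and Il15) and 7 were receptor chains (Csf1r, Csf2ra, Csf2rb, Il7r, Il15ra, Il2rb and Il2rg). RNA was sequenced from the liver of wild-type mice that had received no treatment, in 14 libraries. In 12 libraries the RNA came from immune cells carrying CD45, the surface phosphatase of leukocytes, that had been sorted by flow cytometry out of needle biopsies. They were sorted at 2500, 5000, 10000 or 20000 cells, with 3 libraries at each number, and 2 libraries of unsorted bulk liver served as the control. The labels give no strain, age or sex, and leave it unsaid whether replicate libraries came from different mice or from 1 pool, so the p-values reflect the spread among these libraries alone, which could be technical.

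As background, CSF1 and IL-34 are the ligands of CSF1R, the receptor tyrosine kinase on which monocytes and tissue macrophages such as the liver's Kupffer cells depend. CSF2RA and CSF2RB form the receptor for GM-CSF, and CSF2RB is also used by IL-3 and IL-5. IL2RG is the common gamma chain: with IL7R it makes the IL-7 receptor of lymphocytes, and with IL2RB it carries the signal of IL-15, a survival factor of natural killer cells and memory T cells. IL-15 is usually held on the surface of the producing cell by IL15RA and shown from there to cells that carry IL2RB and IL2RG, so that a ligand, its presenting chain and its signalling chains can sit on different cells.

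The question put to the data was where the ligand and where the receptor transcripts were found, in bulk liver or in the sorted cells. Compared with bulk liver, 7 of the 10 members rose in sorted cells: Il15 and 6 receptor chains (Csf1r, Csf2ra, Csf2rb, Il7r, Il2rb and Il2rg). A rise was called for 41.8% of all 16294 tested genes. The ligand Il34 and the IL-15 presenting chain Il15ra fell, and a fall was called for 38.5% of all tested genes. The ligand Csf1 did not pass the test, and its direction depended on how the libraries were scaled. The calls are from the edgeR quasi-likelihood test on counts, with p adjusted by the Benjamini-Hochberg method over all tested genes and a threshold of 0.05, and all 10 members passed the filter on low counts. That filter admits a gene with enough counts in either kind of sample. Il7r and Il2rb passed through the sorted libraries and Il34 through the bulk ones, so their directions are not independent of it. The same holds for genes of the lists below with few counts in either kind of sample. The 7 receptor chains had a median log2 fold change of 3.55 and the 3 ligands one of -0.39, against 0.17 over all tested genes. Bulk RNA cannot tell fewer cells of a type from less RNA per cell.

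**Figure D1:**
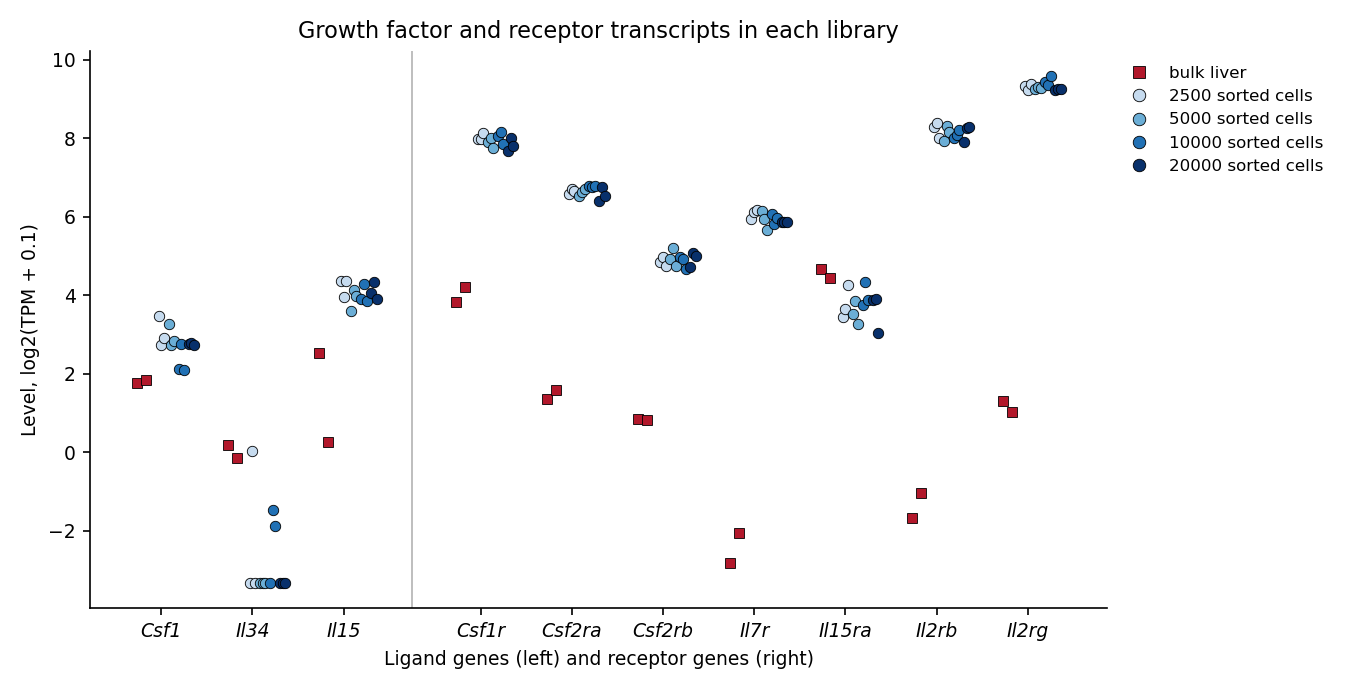
Level of each member in each library as log2(TPM + 0.1), TPM being a level scaled to library size and transcript length, with red squares for the 2 bulk liver libraries and blue circles for the 12 sorted ones, darker with more cells. The 12 circles lie above both squares for 8 genes, Il15ra lies below both squares in all 12, and Il34 is listed at 0 TPM in 9 of 12 sorted libraries. The share of all genes that separate in this way was not counted. A limma test on log2(TPM + 0.1) called 11510 of 16294 genes higher in sorted cells and 2855 lower.

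The libraries held 6723357 to 14496314 counts, and no pair of libraries was identical. Levels below are counts scaled to library size (CPM) with TMM factors, which correct for library composition and were 0.486 and 0.492 in bulk liver and 1.12 to 1.15 in sorted cells. Ptprc, the gene of CD45, stood at 17.4 and 25.1 CPM in bulk liver and at 2067 to 2309 CPM in sorted cells. Of the marker lists, all members rose in sorted cells for monocytes (6 of 6, led in abundance by Lyz2 and Ccr2) and neutrophils (5 of 5, S100a9 and S100a8). The same held for T cells (6 of 6, Lck and Trac), natural killer and innate lymphoid cells (6 of 6, Nkg7 and Gzma) and B cells (5 of 5, Ighm and Cd79a), and 5 of 6 rose for dendritic cells (Ccr7 and Siglech). All fell for hepatocytes (6 of 6, Alb and Apoa1), sinusoidal endothelium (6 of 6, Clec4g and Oit3) and Kupffer cells (8 of 8, Slc40a1 and Clec4f). Of the stellate cell and fibroblast markers 6 of 7 fell (Dcn and Reln), and of those of cholangiocytes 3 of 4 (Sox9 among them, with Epcam not passing). Over all tested genes 41.8% rose and 38.5% fell with TMM factors, and 65.9% rose and 22.4% fell by library totals. By library totals alone, 2 of the 8 Kupffer cell markers were higher and 6 did not pass, and the stellate and cholangiocyte lists had 6 and 2 lower and 1 higher each. Immediate early genes, which tissue handling can induce, were higher for 8 of 8 (Junb and Ier2 the most abundant), with a summed level of 226 to 227 CPM in bulk liver and 1692 to 2040 CPM in sorted cells. The part of handling in the results below was not tested.

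Promoter sequences from RefSeq (build GRCm38.p6) matched 5 of the 10 members by symbol, and 4 are shown because their windows lie before the gene as GENCODE M21 places it, but for 11 bases in Csf2ra and 3 in Il15ra: those of 1 ligand, Csf1, of 2 receptor chains that rose, Csf2ra and Il2rg, and of the receptor chain that fell, Il15ra. Each is the 250 bases before the RefSeq start, 5′ to 3′ on the gene's strand, with capitals for matches on either strand to GAGGAA (a PU.1 type ETS site), GGGCGG (a GC box) or TGTGGT (a RUNX site).
Csf1, chr3:107760470-107760719, minus strand: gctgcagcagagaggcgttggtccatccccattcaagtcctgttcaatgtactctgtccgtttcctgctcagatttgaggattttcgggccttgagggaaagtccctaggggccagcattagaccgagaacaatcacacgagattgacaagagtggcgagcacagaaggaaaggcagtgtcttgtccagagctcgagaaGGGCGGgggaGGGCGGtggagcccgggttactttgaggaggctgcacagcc
Csf2ra, chr19:61228419-61228668, minus strand: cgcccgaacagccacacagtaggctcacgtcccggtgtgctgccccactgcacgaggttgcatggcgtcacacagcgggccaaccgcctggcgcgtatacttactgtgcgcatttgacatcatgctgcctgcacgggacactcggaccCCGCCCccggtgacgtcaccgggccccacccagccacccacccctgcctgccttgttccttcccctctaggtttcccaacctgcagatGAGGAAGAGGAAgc
Il2rg, chrX:101268256-101268505, minus strand: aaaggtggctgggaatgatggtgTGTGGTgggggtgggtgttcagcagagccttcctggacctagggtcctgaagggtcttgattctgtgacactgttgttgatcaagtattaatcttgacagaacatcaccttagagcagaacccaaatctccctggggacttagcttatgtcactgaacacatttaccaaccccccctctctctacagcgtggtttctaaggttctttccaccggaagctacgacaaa
Il15ra, chr2:11705043-11705292, plus strand: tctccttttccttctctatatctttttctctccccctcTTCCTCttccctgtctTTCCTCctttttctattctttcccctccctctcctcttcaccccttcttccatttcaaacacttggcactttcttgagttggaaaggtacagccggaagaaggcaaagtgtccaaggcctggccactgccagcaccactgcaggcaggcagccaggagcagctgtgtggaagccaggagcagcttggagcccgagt
The Csf1 window held 2 GC boxes, a motif present in 32.74% of all 32851 RefSeq promoter windows of the same length. Csf2ra held 1 GC box and 2 PU.1 type sites that follow each other directly, and Il15ra held 2 PU.1 type sites, both on the other strand, a motif found in 23.25% of windows. Il2rg held 1 RUNX site, found in 14.05%. None of the 4 windows matched the AP-1 motif TGANTCA (6.75% of windows), the NF-kB core GGGANTTCC (1.43%) or the TATA box TATAAA (12.37%). The short ETS core GGAA, which is part of the PU.1 type site and stands in 93.45% of windows, was found 3 times in Csf1, 5 in Csf2ra, 4 in Il2rg and 9 in Il15ra. Base composition was 56.4% G and C for Csf1, 64.8% for Csf2ra, 49.2% for Il2rg and 52.8% for Il15ra, around the median of 52.4% over all windows. A match to these letters is a description and shows no binding. The window of Il7r and that of a second RefSeq start of Il15ra lie inside the GENCODE genes and are not shown.

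Among the ligands, Csf1 (ENSMUSG00000014599, chr3:107741048-107760469, minus strand) was close in both kinds of sample. It had 63 and 73 counts in the bulk libraries, or 16.9 and 18.7 CPM, and a lowest, median and highest level of 10.0, 12.9 and 20.2 CPM in the 12 sorted libraries. Of the sorted libraries, 10 lay below both bulk libraries and 1 lay above both, so the groups overlapped. The log2 fold change was -0.39 (SE 0.22, 95% interval -0.85 to 0.07, edgeR adjusted p = 0.11). By library totals it was 0.81 (SE 0.23, edgeR adjusted p = 0.00242), with 12 of 12 sorted libraries exceeding both bulk ones. With the size factors of DESeq2 in edgeR it was -0.50 (edgeR adjusted p = 0.0415), so that the 3 scalings gave a fall, a rise and no call. Under every one of them Csf1 lay below the median of all tested genes, which was 0.17 with TMM factors, 1.37 by library totals and 0.05 with the DESeq2 size factors.

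Il34 (ENSMUSG00000031750, chr8:110741829-110805924, minus strand), the second ligand of CSF1R, had 10 and 9 counts in bulk liver and 4 counts in all over the 12 sorted libraries. The bulk levels were 2.67 and 2.30 CPM, while 9 of the 12 sorted libraries had no count and the highest reached 0.18 CPM. In CPM all 12 sorted libraries lay below both bulk libraries, and in TPM 11 did. Per library total, Il34 was 34.7-fold more abundant in bulk liver, with a 95% exact interval of 11.5 to 140 that covers counting error only. The fitted log2 fold change was -6.40 (SE 0.85, edgeR adjusted p = 4.28e-06), a value that rests on these few counts, and Il34 no longer passed the filter for testing when either bulk library was left out. Of its exon bases, 4.95% lie in exons of the antisense genes Gm15894 and Gm15895, which had 1 count in bulk liver and 5 in sorted cells between them.

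Il15 (ENSMUSG00000031712, chr8:82331632-82403222, minus strand), the cytokine that maintains natural killer cells, was the only one of the 3 ligands that rose with TMM factors. It had 24 and 16 counts in bulk liver, or 6.42 and 4.10 CPM, and 9.29, 10.9 and 16.1 CPM as the lowest, median and highest of the sorted libraries. Each of the 12 sorted libraries exceeded both bulk ones. The log2 fold change was 1.23 (SE 0.31, edgeR adjusted p = 0.00137). By library totals Csf1 rose as well, and relative to Ptprc the value of Il15 was -5.53. The deposited TPM of Il15 in bulk liver were 5.70 and 1.10, a wider gap than that between the counts, so its level per length in bulk liver is known only roughly.

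Csf1r (ENSMUSG00000024621, chr18:61100598-61132149, plus strand), the receptor of CSF1 and IL-34, had 488 and 655 counts in bulk liver. Its level was 131 and 168 CPM in bulk liver and 603, 701 and 757 CPM as the lowest, median and highest in sorted cells. The groups did not overlap, and the log2 fold change was 2.20 (SE 0.10, edgeR adjusted p = 1.17e-13). With TMM factors, markers of the 2 cell types best known for Csf1r moved apart: the 8 Kupffer cell markers summed to 1029 and 1233 CPM in bulk liver and 450 to 742 CPM in sorted cells, and the 6 monocyte markers to 310 to 330 CPM and 9732 to 11960 CPM. By library totals the Kupffer cell sums overlapped, at 506 and 599 CPM in bulk liver and 503 to 851 CPM in sorted cells. The mean TPM of every Kupffer cell marker was higher in sorted cells. The part of either cell type in the Csf1r result was not tested. Of the exon bases of Csf1r, 15.1% lie in exons of Hmgxb3 on the other strand, which had 181 counts in bulk liver and 5725 in sorted cells. Whether reads were counted by strand is not stated in the sources used here.

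The 2 chains of the GM-CSF receptor both rose, the binding chain more than the signalling chain. Csf2ra (ENSMUSG00000059326, chr19:61223957-61228429, minus strand), which binds GM-CSF, was at 11.2 and 12.5 CPM in bulk liver and at 125, 139 and 151 CPM as the lowest, median and highest in sorted cells. Csf2rb (ENSMUSG00000071713, chr15:78325752-78353847, plus strand), the shared signalling chain, was at 18.2 and 17.7 CPM in bulk liver and at 75.1, 88.5 and 113 CPM in sorted cells. Neither gene overlapped between the groups. The log2 fold changes were 3.55 for Csf2ra (SE 0.13, edgeR adjusted p = 9.35e-16) and 2.34 for Csf2rb (SE 0.15, edgeR adjusted p = 2.00e-11). Of the 50-base stretches of Csf2rb transcripts, 12.3% also occur in other genes, among them its neighbour Csf2rb2, so reads may have been shared between these near copies. Csf2rb2 itself had 17 counts in bulk liver and 3203 in sorted cells.

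The lymphocyte receptor chains had the 3 largest rises of the members with TMM factors. Il2rb (ENSMUSG00000068227, chr15:78479256-78495271, minus strand), the beta chain for IL-2 and IL-15, had 4 and 9 counts in bulk liver, or 1.07 and 2.30 CPM, and 420, 511 and 587 CPM as the lowest, median and highest in sorted cells. Il7r (ENSMUSG00000003882, chr15:9505788-9530176, minus strand), the binding chain for IL-7, had 1 and 4 counts in bulk liver, or 0.27 and 1.02 CPM, and 121, 142 and 166 CPM in sorted cells. Il2rg (ENSMUSG00000031304, chrX:101264378-101268255, minus strand), the common gamma chain, had 16 and 13 counts in bulk liver, or 4.28 and 3.33 CPM, and 246, 266 and 315 CPM in sorted cells. None of these genes overlapped between the groups.

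The log2 fold change was 8.17 for Il2rb (SE 0.30, edgeR adjusted p = 1.00e-12), 7.74 for Il7r (SE 0.27, edgeR adjusted p = 1.14e-15) and 6.14 for Il2rg (SE 0.16, edgeR adjusted p = 4.92e-18). The low bulk counts made the size of these folds depend on single bulk libraries: the value of Il7r was 7.17 without the first and 9.06 without the second, and that of Il2rb 7.80 and 8.90. The 6 T cell markers summed to 4.82 and 8.19 CPM in bulk liver and 1082 to 1271 CPM in sorted cells, and the 6 markers of natural killer and innate lymphoid cells to 3.48 and 3.58 CPM and 1009 to 1329 CPM. Their part in these rises was not tested. Of the exon bases of Il2rg, 30.5% lie in exons of the overlapping gene Gm20489, which had 0 counts in all libraries.

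Il15ra (ENSMUSG00000023206, chr2:11705290-11734317, plus strand), the chain that presents IL-15, was the only receptor chain among the members that fell with TMM factors. It had 253 and 249 counts in bulk liver, or 67.7 and 63.7 CPM, and 9.15, 12.0 and 21.2 CPM as the lowest, median and highest in sorted cells. All 12 sorted libraries lay below both bulk libraries, also by library totals and in TPM. The log2 fold change was -2.40 (SE 0.17, edgeR adjusted p = 1.03e-10), and it was -1.19 by library totals (edgeR adjusted p = 4.57e-06) and -0.81 on the log2(TPM + 0.1) scale (limma adjusted p = 0.00713). The 6 hepatocyte markers summed to 78489 and 80620 CPM in bulk liver and 64.6 to 101 CPM in sorted cells, and the 6 sinusoidal endothelial markers to 413 and 432 CPM and 40.0 to 90.9 CPM. Their part in the fall of Il15ra was not tested.

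**Figure D2:**
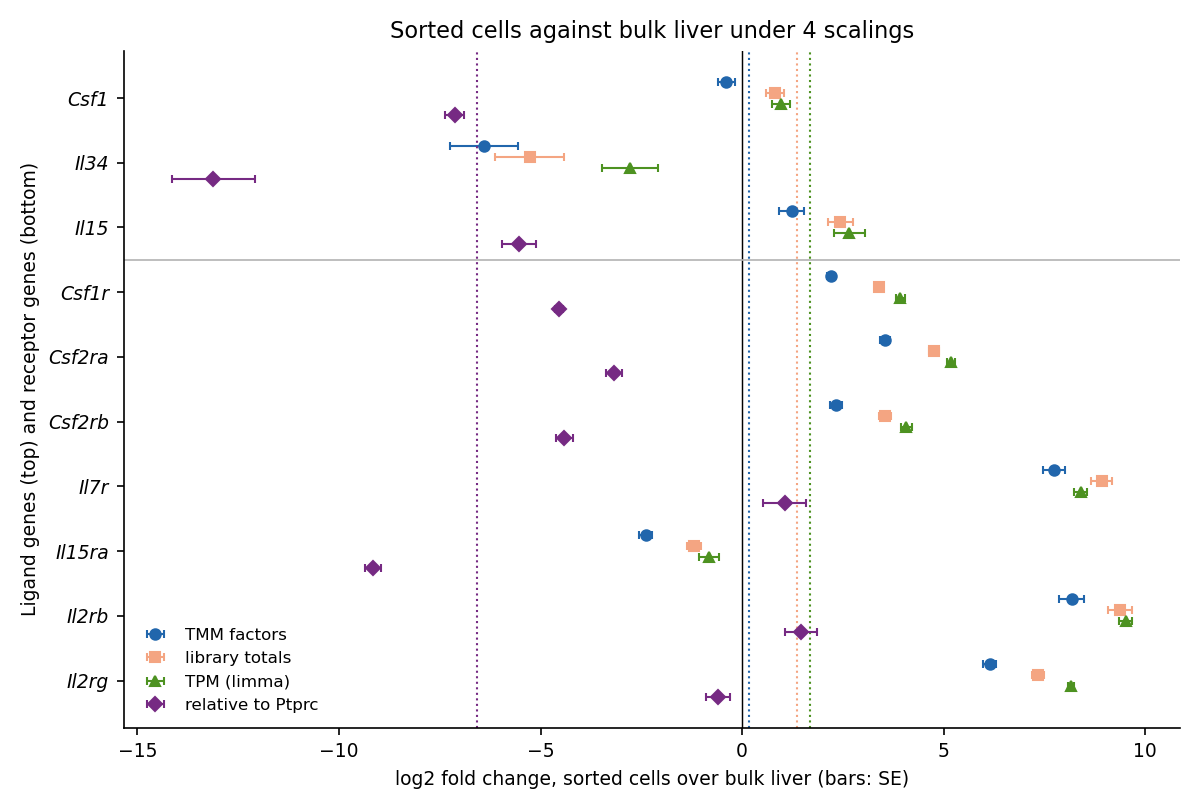
Log2 fold change of each member, sorted cells over bulk liver, under 4 scalings, with bars for the standard error and dotted lines for the median of all tested genes under the same scaling. Il15ra and Il34 lie left of 0 under all 4, Csf1 lies on either side, and relative to Ptprc only Il2rb and Il7r lie right of 0.

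Scaling changed the size of every fold and the direction of several. By library totals, 8 members were higher and 2 lower, beside 65.9% (10737) and 22.4% (3654) of all tested genes, against 6806 and 6273 with TMM factors. Relative to Ptprc, which sets each gene against the transcript of CD45 itself, 1 member was higher and 7 were lower, and for all tested genes the shares were 0.675% and 89.7%. Il2rb rose by 1.47 on this log2 scale (SE 0.39, edgeR adjusted p = 0.00109), while Il7r at 1.05 (edgeR adjusted p = 0.0716) and Il2rg at -0.59 (edgeR adjusted p = 0.0648) did not pass. The SE and p on this scale treat the Ptprc counts as exact and leave out their error. In the bulk libraries these were 65 and 98 counts, and Il2rb had 4 and 9, so the call for Il2rb is weaker than its p. The 3 myeloid receptor chains were lower relative to Ptprc, with log2 values of -4.54 for Csf1r, -4.41 for Csf2rb and -3.18 for Csf2ra. All 3 lay above the median of all tested genes on this scale, which was -6.58, and above that of the Kupffer cell markers, -7.81. The ligands were at -5.53 for Il15, -7.13 for Csf1 and -13.12 for Il34, and Il15ra was at -9.16.

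A ratio of 2 genes within a library does not depend on the scaling, and 9 ratios were compared. All 9 differed between the 12 sorted and the 2 bulk libraries without overlap, each with p = 0.022 in a two-sided exact permutation test, the smallest value that the 91 splits allow, and 0.022 after Benjamini-Hochberg adjustment over the 9. The share of all gene pairs that separate in this way was not computed. With TMM factors 41.8% of all tested genes were called higher and 38.5% lower, so the separation is not shown to be particular to these pairs. Each ratio also joins 2 members whose fold changes are given above, so the 9 tests restate those folds and add no independent support. Il34 over Csf1r and Il15 over Il15ra join members already called in opposite directions, so their outcome was largely set beforehand. Il34, Il2rb and Il7r had moreover passed the filter through the kind of sample where they were higher. Csf1 over its receptor Csf1r had log2 count ratios of -2.94 and -3.16 in bulk liver and of -6.14, -5.72 and -5.12 as the lowest, median and highest in sorted cells, a difference of -2.62. Per length, Csf1r stood at 4.80 ± 0.714 times the TPM of Csf1 in bulk liver (SD, n = 2) and at 38.3 ± 11.6 times in sorted cells (SD, n = 12). Il34 over Csf1r differed by -7.53 and Il34 over Csf1 by -4.91 on the log2 scale, and by -6.76 and -4.14 with a pseudocount of 1 count. The pseudocount moves the size of both, since Il34 had no count in 9 of the 12 sorted libraries. In TPM, Il34 stood at 0.273 ± 0.0574 of Csf1 in bulk liver (SD, n = 2).

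The genes of the IL-15 system shifted against each other. In bulk liver Il15 over its presenting chain Il15ra had log2 count ratios of -3.37 and -3.92, and in sorted cells the lowest, median and highest were -0.43, -0.14 and 0.66, a difference of 3.62. Against the signalling chains the shift was the other way: Il15 over Il2rb differed by -6.96 and Il15 over Il2rg by -4.90. Per length, Il15 stood at 0.0514 and 0.227 of the TPM of Il15ra in the bulk libraries and at 1.29 ± 0.326 of it in sorted cells (SD, n = 12). The value for Il15 over Il2rb was -6.14 without the first bulk library and -7.79 without the second, so its size is loosely set.

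The receptor subunits also changed against each other. Csf2ra over Csf2rb had log2 count ratios of -0.69 and -0.49 in bulk liver and of 0.28, 0.61 and 0.98 as the lowest, median and highest in sorted cells, a difference of 1.22. Il2rb over Il2rg moved by 2.07, from -1.87 and -0.51 in bulk liver to 0.64, 0.82 and 1.22 in sorted cells, and the difference was 1.38 or 2.75 when the first or the second bulk library was left out. Il7r over Il2rg differed by 1.61 in counts, but by 0.23 in TPM with a pseudocount of 0.1, where it did not pass (exact permutation test, adjusted p = 0.308). The Il7r TPM in bulk liver were 0.04 and 0.14, so a pseudocount of that size largely sets the value. Without it the TPM ratios were 0.0169 and 0.0729 in bulk liver and 0.0801 to 0.116 in sorted cells. The count ratio rests on 5 Il7r counts in bulk liver, and its difference was 0.68 or 2.55 without the first or the second bulk library.

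**Figure D3:**
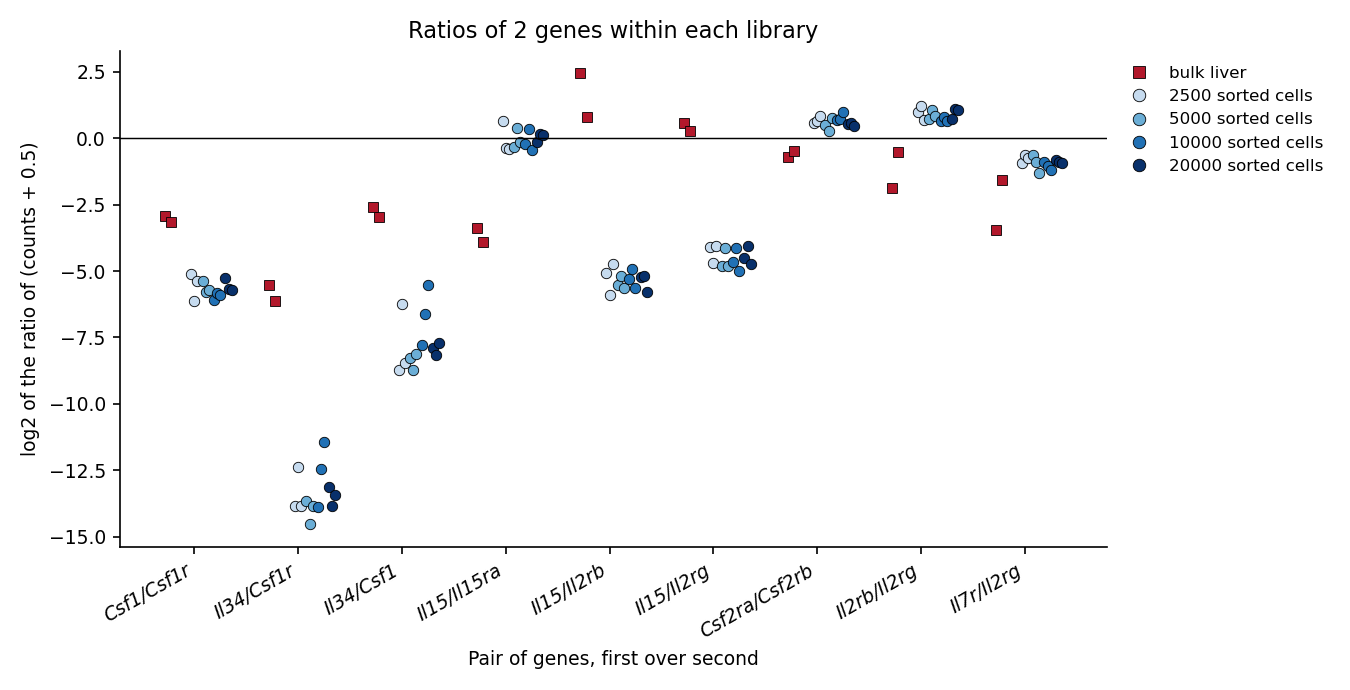
Log2 ratio of the counts of 2 genes, each plus 0.5, within every library, with red squares for the 2 bulk libraries and blue circles for the 12 sorted ones. Squares and circles do not overlap for any of the 9 ratios, and Il15 over Il15ra is near 0 in sorted cells and at -3.37 and -3.92 in bulk liver. How often other gene pairs separate was not computed.

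Levels of different genes were compared per length, as TPM, and without a test. In bulk liver Il15ra stood highest at 23.3 ± 2.62 TPM (SD, n = 2), followed by Csf1r at 16.2 ± 2.95. The others were at 3.40 TPM or less in the order Il15, Csf1, Csf2ra, Il2rg, Csf2rb, Il34, Il2rb and Il7r, and of the neighbours in this order only Il15 and Csf1 overlapped between libraries. Il15, at 5.70 and 1.10 TPM, also spanned the levels of Csf2ra, Il2rg and Csf2rb, so its place is not settled. Il7r closed the order at 0.09 ± 0.071 TPM. In sorted cells the order was led by Il2rg at 641 ± 48.8 TPM (SD, n = 12), then Il2rb at 286 ± 31.5, Csf1r at 247 ± 25.1, Csf2ra at 100 ± 8.49, Il7r at 61.9 ± 6.57 and Csf2rb at 29.9 ± 3.45. The levels of Il2rb and Csf1r overlapped. Below them came Il15 at 16.8 ± 2.72, Il15ra at 13.6 ± 3.52 and Csf1 at 6.90 ± 1.87, each overlapping with the next, while Il34 was listed at 0 in 9 libraries and at 0.92, 0.26 and 0.17 TPM in the other 3. All 3 ligands and Il15ra thus stood below the 6 other receptor chains in the sorted libraries.

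The study varied the number of sorted cells, and the 9 members with enough counts were compared over it. Il34 was not tested. With the edgeR quasi-likelihood test, 0 of 9 had a slope on log2 cell number (0.0811% of 14795 genes did), 0 of 9 differed between 2500 and 20000 cells (0.419% of genes) and 0 of 9 differed between any of the 4 inputs (0.297%). At an unadjusted p under 0.05 there were 0 for the slope and 1 for 2500 against 20000 cells, and DESeq2 gave the same 0 and 1, while limma on TPM gave 0 and 0. The 1 gene was Csf1r, at 705, 710 and 757 CPM with 2500 cells, 675, 723 and 625 CPM with 5000, 697, 736 and 629 CPM with 10000, and 603, 712 and 640 CPM with 20000. Libraries of all inputs overlapped. Its log2 difference of 2500 minus 20000 cells was 0.16 (95% interval 0.01 to 0.31, edgeR adjusted p = 0.341). The 8 Kupffer cell markers summed to 604 to 715 CPM at 2500 cells, 472 to 528 at 5000, 538 to 742 at 10000 and 450 to 499 at 20000. Of the 8, Cd5l and C1qa passed the test as higher at 2500 than at 20000 cells. Of the 6 monocyte markers, Ly6c2 passed as lower at 2500 cells (log2 difference -0.31, edgeR adjusted p = 0.0334). These genes were named after their values were seen, and the part of either list in the Csf1r difference was not tested.

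How closely the inputs matched differed between members. The 95% intervals for 2500 minus 20000 cells ran from -0.14 to 0.18 for Csf2ra and from -0.11 to 0.19 for Il2rg, the narrowest of the tested members together with that of Csf1r. They ran from -0.22 to 0.68 for Csf1, from -0.29 to 0.69 for Il15 and from -0.13 to 0.79 for Il15ra, the 3 tested members with the fewest counts. Il15ra was at 9.95, 12.5 and 21.2 CPM in the 3 libraries of 2500 cells, against 11.8, 11.5 and 11.8 CPM at 5000 cells. Csf1 was at 20.2, 10.0 and 18.3 CPM with 2500 cells and at 15.7, 13.9 and 12.0 CPM with 20000. For these genes the intervals do not exclude a moderate difference.

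**Figure D4:**
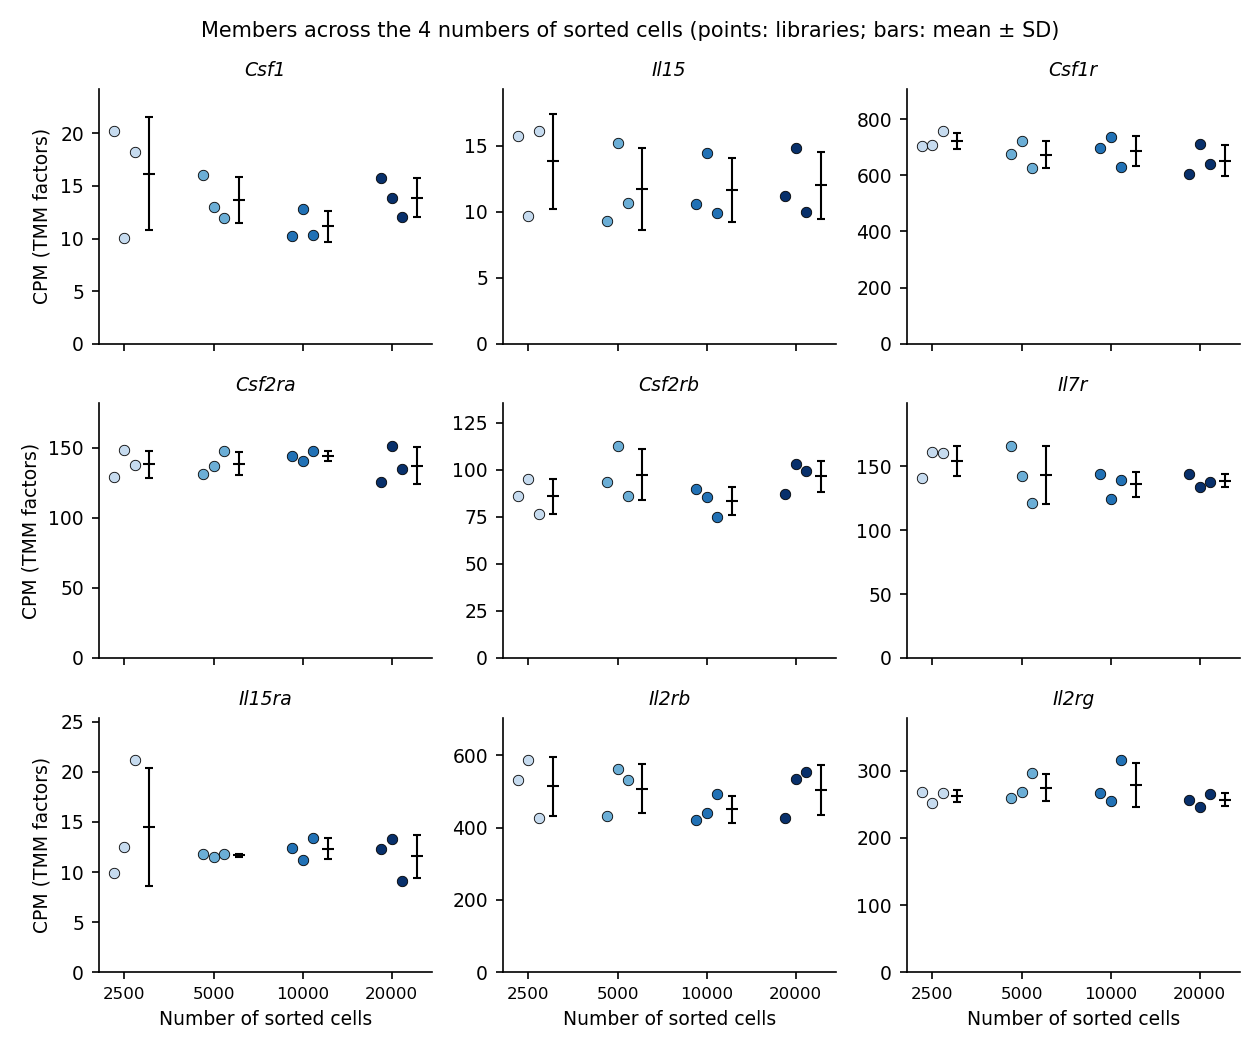
CPM (TMM factors) of the 9 tested members in each sorted library, by number of sorted cells, with the mean and SD of the 3 libraries beside the points. Every axis starts at 0, the inputs overlap for all 9 genes, and Il15ra at 2500 cells runs from 9.95 to 21.2 CPM.

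Across the 12 sorted libraries the genes whose log2 CPM most resembled each member's were listed as a description, with no p. The search covered the 7506 genes with a mean of at least 20 CPM, less the member itself. For Csf1r they were Fes (Pearson r = 0.91), a kinase of myeloid cells, Usp22 (0.89) and Brpf1 (0.89). For Il2rb they were Slc35a2 (0.92), Ppp2r5e (0.91) and Otud5 (0.91), and for Il2rg Cnot8, Pfn1 and Tnfrsf13b (0.86 to 0.87). Csf2ra was closest to Nlrx1 (0.88), Csf2rb to Elmsan1 (0.88), Il7r to Dhx35 (0.86) and Il15ra to Marveld2 (0.90). Of the ligands, Csf1 was closest to Trim30a (0.84) and Il15 to Pecam1 (0.86), the adhesion molecule CD31. The 12 points come from 1 sort marker and 1 library method, and the SD of the members' log2 CPM over them was small, from 0.0899 for Csf2ra to 0.317 for Csf1. How high the best r among 7506 genes would be for an unrelated pattern over 12 libraries was not computed. These genes are therefore not shown to be regulated together with the members.

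Other genes of the same pathways were taken from lists chosen for what the genes are known to do, with earlier results of these data known. Of 14 other ligands, 6 had enough counts to be tested, 4 rose and 2 fell. Over all tested genes 41.8% rose and 38.5% fell. The median log2 fold change was 2.53 against 0.17 over all tested genes. Csf2, Il2 and Il4 passed the filter through the sorted libraries, and Thpo and Kitl did not pass it among the sorted libraries alone. For these genes the direction went with the filter, so the split and the median are a description only. Relative to Ptprc, 0 of the 6 were higher, 3 were lower and 3 did not pass, beside 0.675% higher and 89.7% lower over all tested genes. Thpo, the growth factor of platelet precursors, fell from 33.7 ± 3.02 CPM in bulk liver (SD, n = 2) to 0.0324 ± 0.0801 CPM in sorted cells (SD, n = 12), with 258 and 4 counts in all. Kitl, the ligand of KIT, fell by 3.06 on the log2 scale (edgeR adjusted p = 1.26e-04), from 3.79 to 0.458 CPM. Flt3l, which supports dendritic cell precursors, rose by 2.00 (edgeR adjusted p = 1.20e-08), from 6.54 to 26.2 CPM, and Il4 rose by 4.49 (edgeR adjusted p = 1.13e-05), from 0.128 to 3.25 CPM. The ligands of the receptors above were sparse and are named after their values were seen: Csf2, which encodes GM-CSF, had 0 counts in bulk liver and 149 over the 12 sorted libraries, Il2 had 1 and 152, and Il7 had 2 and 24, too few to be tested.

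Of 15 other receptors 13 were tested, 10 rose, 1 fell and 2 did not pass, with a median log2 fold change of 3.48. Over all tested genes 41.8% rose and 38.5% fell, with a median of 0.17. Il9r, Il5ra, Il21r, Il2ra and Flt3 passed the filter through the sorted libraries alone, so their direction went with the filter. Relative to Ptprc, 1 was higher, 8 were lower and 4 did not pass, beside 0.675% higher and 89.7% lower over all tested genes. Csf3r, the G-CSF receptor of neutrophils, was at 2.61 ± 0.289 CPM in bulk liver (SD, n = 2) and at 259 ± 25.9 CPM in sorted cells (SD, n = 12), a log2 fold change of 6.62 (edgeR adjusted p = 4.59e-18). Il21r, which pairs with IL2RG, rose by 8.05 (edgeR adjusted p = 2.48e-15), from 0.646 to 177 CPM, and Il4ra, another partner of IL2RG, by 2.17 (edgeR adjusted p = 2.61e-15), from 63.6 to 287 CPM. Sdc1, a heparan sulphate proteoglycan of hepatocytes and plasma cells that can bind IL-34, fell by 4.91 (edgeR adjusted p = 6.49e-17), from 455 to 15.3 CPM. The 2 that did not pass with TMM factors, named for that reason, were Il3ra at 0.70 and Il13ra1 at 0.14. Both were higher by library totals, as were 65.9% of all tested genes.

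Downstream of these receptors, 19 of 21 signalling genes rose, 1 fell and 1 did not pass, with a median log2 fold change of 2.33. The shares over all tested genes were 41.8% for a rise and 38.5% for a fall. Relative to Ptprc, 0 were higher, 20 were lower and 1 did not pass, near the shares of 0.675% higher and 89.7% lower over all tested genes. The median on this scale was -4.44 against -6.58 over all tested genes. The most abundant were Jak1, the kinase bound by IL7R and IL2RB, at 219 CPM in bulk liver and 1096 CPM in sorted cells (log2 fold change 2.33, edgeR adjusted p = 6.46e-18), and Mcl1, a survival factor, at 209 and 1076 CPM (2.36, edgeR adjusted p = 8.79e-18). Pik3cd, the leukocyte PI3-kinase, rose by 6.39 (edgeR adjusted p = 1.14e-16), from 6.23 to 527 CPM, and Tyrobp, the adaptor DAP12, by 3.94 (edgeR adjusted p = 1.78e-17), from 30.5 to 471 CPM. The gene that did not pass was Socs2, another feedback inhibitor, at 0.18. Cish, a STAT5 target that restrains cytokine receptors, fell by 0.71 (edgeR adjusted p = 0.00121) with TMM factors. By library totals it was higher instead, at 0.49, as were all 21 genes and 65.9% of all tested genes. None of the genes tested in these 3 lists had a slope on the cell number or differed between 2500 and 20000 cells by the edgeR test.

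**Figure D5:**
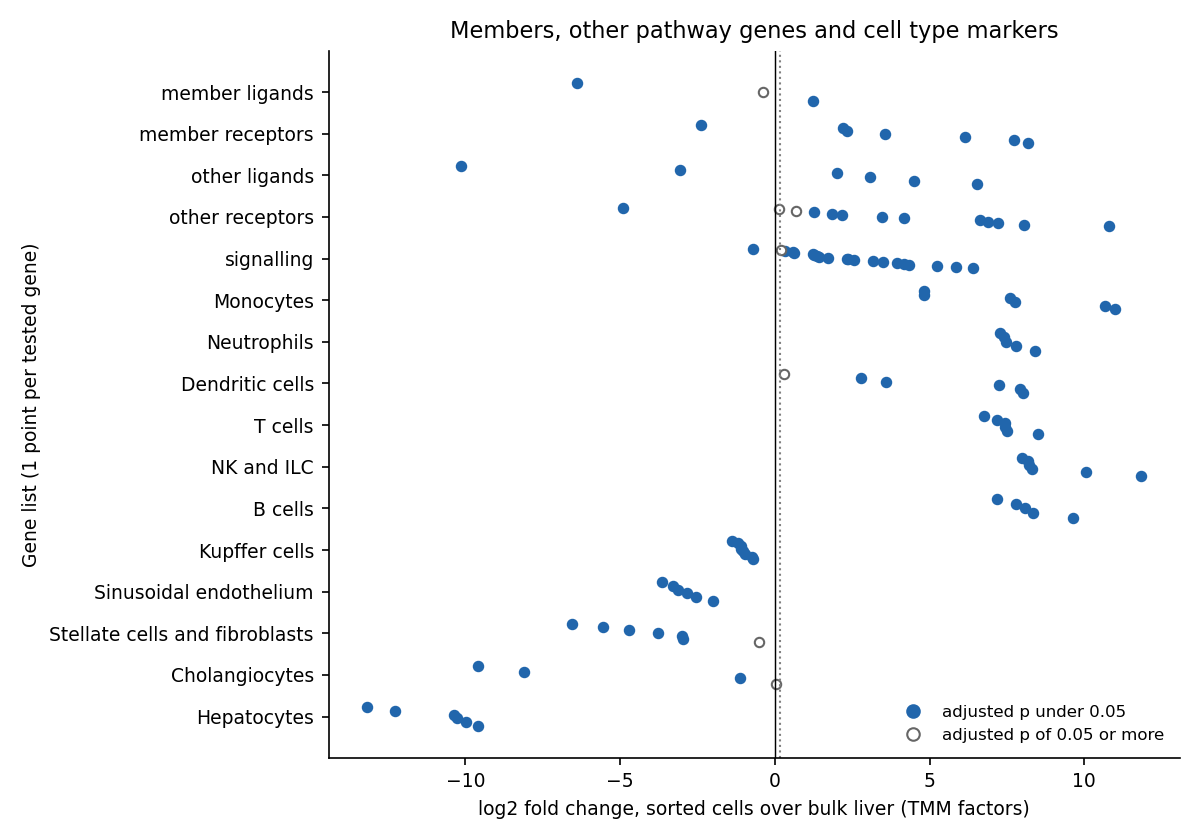
Log2 fold change, sorted cells over bulk liver with TMM factors, of every tested gene of the member, pathway and marker lists, filled where the adjusted p was under 0.05. The dotted line is the median of all tested genes, 0.17, and the single receptor chain left of 0 among the members is Il15ra.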

How the data were processed

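The authors deposited raw counts per gene and TPM values for 14 libraries, which were used, and a variance-stabilised table, which was not. The build was GRCm38, and the submitters' processing notes list featureCounts 1.5.1, STAR 2.5.2b, DESeq2 1.34.0, RSEM 1.3.0 and FastQC 0.11.5 without their roles. Per the labels' protocols, total RNA was amplified with SMART-seq v4. Counts were tested with edgeR 4.0.16 (R 4.3.3; TMM factors, filterByExpr by group, robust quasi-likelihood F test) over 14 libraries for sorted cells against bulk liver and over the 12 sorted ones for cell number. Ratios used a pseudocount of 0.5 counts. Alternatives used DESeq2 1.42.0, limma 3.58.1 on TPM, other scalings and left-out libraries. The models were also run on simulated counts in which few genes changed, equally up and down. That run does not bear on the shift in composition between bulk liver and sorted cells. Total counts were 6723357 to 14496314 per library, and intervals cover counting error only where so stated. The members and lists (133 genes, all matched) were chosen with earlier results of these data known. Of each pathway list the 4 members with the highest mean CPM and those called against the list's direction were named, and of each marker list the 2 with the highest mean CPM could be named. Likeness was Pearson's r of log2(CPM + 0.5). Positions are from GENCODE M21. Replicate numbers were not used as pairs.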

Additional observations from a re-analysis of the deposited data

How the results depend on the processing

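For sorted cells against bulk liver, 12 alternatives that kept all libraries and 14 that left one out were run. Scaling to Ptprc moved the number of members higher from 7 to 1 and lower from 2 to 7, and reversed the log2 values of Il15 (-5.53), Csf1r (-4.54), Csf2ra (-3.18), Csf2rb (-4.41) and Il2rg (-0.59), all relative to a transcript that itself marks sorted cells. Csf1 reversed by library totals (0.81) and on TPM with pseudocounts of 0.1 (0.97) and 1 (0.82), and passed as lower with DESeq2 size factors (-0.50), with 10000 cells alone (-0.67) and relative to Ptprc (-7.13). Leaving out a library gave 7 members higher each time and 1 to 2 lower, since Il34 failed the filter without either bulk library. The other 6 receptor chains, Il15, Il15ra and Il34 kept their direction and call under the 11 alternatives other than the Ptprc scaling.

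The numbers do not pair the samples: the deviations of same-numbered sorted libraries correlated at -0.24 to 0.32, and 2 of 12 correlated best with their own number. With the replicate block, 7 members were higher, 2 lower, and 0 changed with cell number, as without it. The slopes and the 2500 against 20000 comparison gave 0 members under each of their alternatives. With TPM and a pseudocount of 0.1, 8 of 9 ratios passed. The exception was Il7r over Il2rg, whose bulk Il7r TPM are of the size of that pseudocount. Without a bulk library no permutation test of a ratio could reach 0.05, so those give differences only. The 2 bulk libraries limit most results, and few counts limit Il7r and Il2rb in bulk liver and Il34 in sorted cells.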
